A study of Callithrix jacchus with 8 samples.

Results

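The set described here holds 88 of the 32338 gene identifiers counted in embryonic stem (ES) cells of the common marmoset, a New World monkey. Its members were chosen from the measured values. Counts were scaled to CPM, the count of an identifier per 1000000 gene counts of its library. A member had a mean count of at least 200 and a mean CPM under 500 over the 8 libraries, and it changed by less than 0.5 on the log2 scale between the 2 passages of every line. The means of DPZcjESC3 and DPZcjESC4 differed by less than 0.3 (log2), and the means of DPZcjESC1 and of DPZcjESC2 were each 0.3 to 0.9 (log2) above the mean of DPZcjESC3 and DPZcjESC4, which is 1.23-fold to 1.87-fold. The mirror set, with both lines 0.3 to 0.9 below, held 39 identifiers. Of all identifiers, 8466 met the limits on count and CPM and are called expressed below, 4203 of these also met the limit on passages, and 3655 also met the limit between DPZcjESC3 and DPZcjESC4.

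RNA of 4 ES cell lines was sequenced at 2 passages each. DPZcjESC1 (male, passages 46 and 51) and DPZcjESC2 (female, passages 36 and 37) came from non-compacted morulae of the same donor animal. DPZcjESC3 (female, passages 37 and 41) came from a compacted morula and DPZcjESC4 (male, passages 30 and 33) from an expanded blastocyst. By karyotype, DPZcjESC1 was trisomic for a pair of chromosomes and DPZcjESC2 for 1, whereas DPZcjESC3 and DPZcjESC4 were euploid apart from individual aberrations in some DPZcjESC3 cells. The labels name no treatment of the cells, each line derives from 1 embryo, and all were grown on mouse embryonic fibroblasts. Ploidy, donor and embryo stage therefore separate the lines in the same way and cannot be told apart, and the 2 libraries of a line are passages of 1 culture line, so that errors and p-values cover the spread between passages and not between embryos.

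An extra copy of a chromosome raises the gene dose of every gene on it. Where the RNA level follows the dose, 3 copies in place of 2 give a 1.5-fold level, 0.58 on the log2 scale, and where a gene is buffered the rise is smaller. Extra chromosomes are a known change of pluripotent stem cells in long culture, and early primate embryos often carry aneuploid cells.

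Library totals lay between 10615123 and 12885444 gene counts, and 3 counts corresponded to 0.233 to 0.283 CPM. DPZcjESC1 passage 46 stood apart, with a root mean square log2 distance of 0.622 from the median profile against 0.242 to 0.401 for the others, and results are also given without it. POU5F1, the core pluripotency factor, was present at 311 to 480 CPM in all libraries. The summed level of the 7 pluripotency markers found among 9 was 863 to 1314 CPM in the libraries of DPZcjESC1 and DPZcjESC2 and 856 to 1388 CPM in the other 4. For fibroblast markers, 4 of 6 were found, with sums of 1003 to 5333 CPM and 1821 to 4336 CPM. Neither list shared a gene with the set, both sums overlapped between the groups, and the part of feeder cells in the results was not tested. In such bulk RNA, fewer cells with a transcript and less of it per cell cannot be told apart.

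The members sat below 1.5-fold on average. Their median log2 ratio to the mean of DPZcjESC3 and DPZcjESC4 was 0.43 in DPZcjESC1 (range 0.30 to 0.83), a fold of 1.35, and 0.49 in DPZcjESC2 (range 0.30 to 0.86), a fold of 1.40. By library, the median was 0.49 and 0.40 at passages 46 and 51 of DPZcjESC1, 0.47 and 0.54 in DPZcjESC2, -0.08 and -0.00 in DPZcjESC3, and -0.01 and 0.05 in DPZcjESC4. Together the 88 members made up 0.573% ± 0.0186 (SD, n = 2) of the gene counts in DPZcjESC3 and 0.602% ± 0.0201 in DPZcjESC4, but 0.810% ± 0.0438 in DPZcjESC1 and 0.856% ± 0.0233 in DPZcjESC2. All 4 libraries of DPZcjESC1 and DPZcjESC2 lay above the other 4 for 77 members, where 2.36% of the 15781 identifiers tested did so. The rule itself used this contrast, so these values describe the choice and nothing is read from that count.

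**Figure D1:**
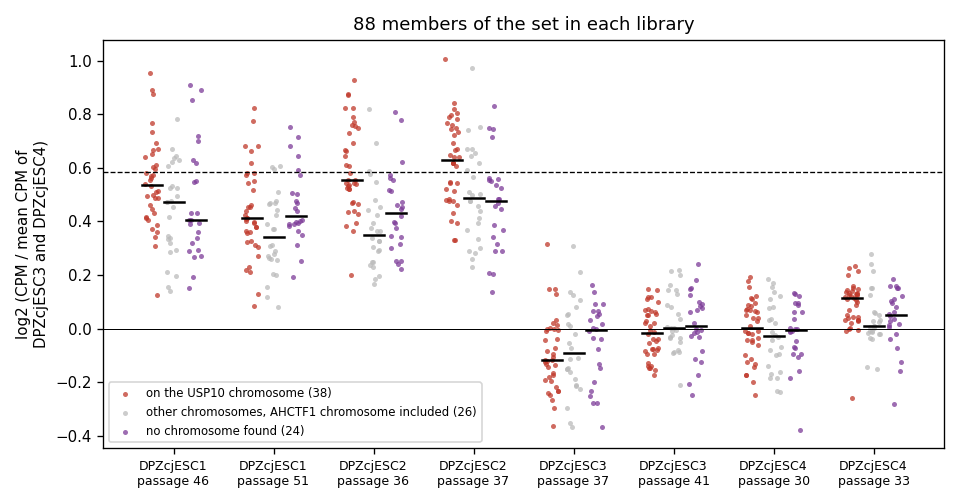
Each point is 1 of the 88 members in 1 library, as the log2 ratio of its CPM to the mean CPM of DPZcjESC3 and DPZcjESC4; black bars are medians, the dashed line is 1.5-fold, and colours give the chromosome. Members on the chromosome of USP10 are higher in DPZcjESC2 than the other members, and the libraries of DPZcjESC3 and DPZcjESC4 lie around 0.

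The rule used no position, and the members were unevenly placed. A gene symbol was found for 64 members, and each of these had a chromosome in the RefSeq annotation of assembly calJac240_pri, which is not the assembly on which the reads were counted, so that chromosomes are named here by a gene they carry. The chromosome that carries USP10 held 38 of the 64 placed members (59.4%), while it held 153 of the 6544 expressed genes with a chromosome (2.34%). The chromosome that carries AHCTF1 held 3 members (RNPEP, B3GALNT2 and NTPCR), and the other 23 were spread over 15 chromosomes with at most 5 on any. Of the mirror set, 0 of the 30 placed identifiers were on either of these 2 chromosomes, and they lay on 16 others. The 2 chromosomes held 2.34% and 1.96% of the expressed genes with a chromosome, so 0 of 30 is near that share. The share among placed members is void as a check of all members, since 24 members have no chromosome and 72.7% placed is under the 80% taken here as the minimum. The mirror set (76.9% placed) and the expressed identifiers (77.3%) were under that minimum too. Whatever the place of the 24 members without a chromosome, at least 38 of 88 (43.2%) were on the chromosome of USP10, and at most 62. Whether this chromosome is the one seen as an extra copy in the karyotypes was not tested.

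Along the 153 expressed genes of the USP10 chromosome, the members were found from end to end. In 5 successive blocks of 30 or 31 genes there were 4, 7, 8, 7 and 12 members. The median log2 ratio of all expressed genes in these blocks was 0.35, 0.28, 0.41, 0.26 and 0.38 in DPZcjESC1 and 0.47, 0.46, 0.56, 0.50 and 0.50 in DPZcjESC2. No block was at the level of DPZcjESC3 and DPZcjESC4 in either line. In the order of expressed genes along the chromosomes, 13 of the 64 placed members were next to another member. All 13 were on the USP10 chromosome, where 24.8% of the expressed genes were members. In the mirror set 0 of 30 were, but its placed identifiers made up only 0.458% of that order. In the order of identifier numbers 8 of 88 members were next to another. No clustering beyond the share of the chromosome is read from these counts.

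**Figure D2:**
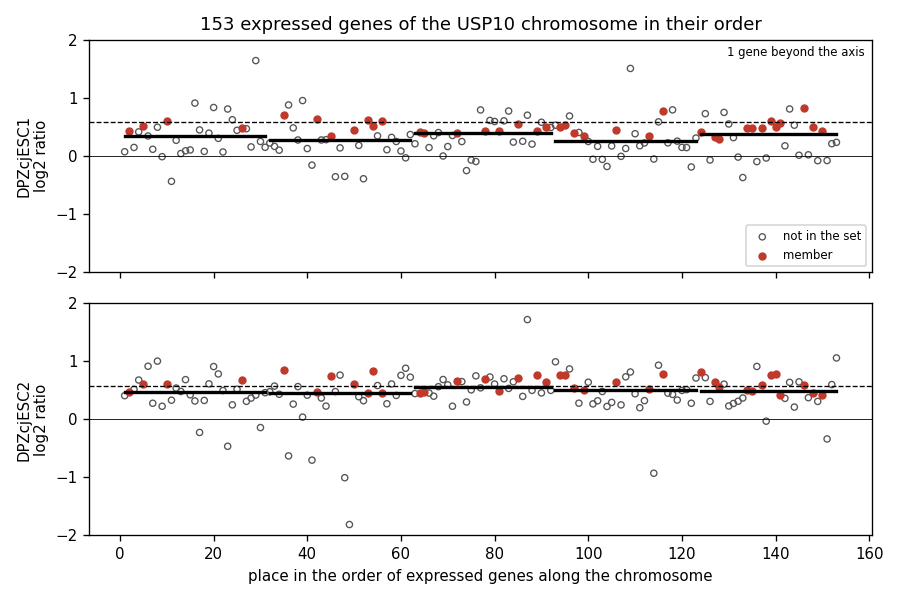
Log2 ratio of each of the 153 expressed genes on the chromosome of USP10 to the mean of DPZcjESC3 and DPZcjESC4, in the order of the genes, for DPZcjESC1 (top) and DPZcjESC2 (bottom); filled points are members, bars are medians of 5 blocks and the dashed line is 1.5-fold. Block medians lie between 0.26 and 0.41 in DPZcjESC1 and between 0.46 and 0.56 in DPZcjESC2.

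The members on the USP10 chromosome had higher ratios than those elsewhere, within the window that the rule allows. Their median was 0.49 in DPZcjESC1 and 0.61 in DPZcjESC2, which is 1.40-fold and 1.52-fold. For the 23 members on chromosomes other than those of USP10 and AHCTF1 it was 0.38 and 0.41, and for the 24 without a symbol 0.44 and 0.44. All 4 libraries of DPZcjESC1 and DPZcjESC2 lay above the other 4 for 35 of the 38 members on the USP10 chromosome and for 18 of those 23 elsewhere, beside the 2.36% of all identifiers, and here too the rule used the contrast and nothing is read from the counts. The median of the members' mean CPM was 82.7 on the USP10 chromosome and 41.6 for the 23 elsewhere.

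Among the 20 members with the highest mean CPM, 15 were on the USP10 chromosome. They are given here by role, a grouping made after they were seen and not tested for enrichment. USP10, a deubiquitinating enzyme, had 266 and 254 CPM in DPZcjESC1 at passages 46 and 51, 298 and 347 in DPZcjESC2, 194 and 207 in DPZcjESC3, and 197 and 225 in DPZcjESC4. All 4 libraries of the first pair of lines were above the other 4, with a log2 ratio of 0.34 in DPZcjESC1 and 0.65 in DPZcjESC2. PSMD7, a subunit of the proteasome lid, had 186 and 221 CPM in DPZcjESC1, 206 and 244 in DPZcjESC2, 123 and 150 in DPZcjESC3, and 129 and 150 in DPZcjESC4. DNAJA2, a co-chaperone of the heat shock protein family, had 194 and 155 CPM in DPZcjESC1, 168 and 202 in DPZcjESC2, 98.8 and 123 in DPZcjESC3, and 139 and 125 in DPZcjESC4. The ratios were 0.56 and 0.71 for PSMD7 and 0.52 and 0.61 for DNAJA2, again without overlap between the groups. N4BP1, a ribonuclease that restrains inflammatory signalling, had almost equal ratios of 0.60 and 0.61.

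Of the same 15, VPS35, AP1G1, IST1, VPS4A and DYNC1LI2 have roles in endosomes or transport. VPS35, the core subunit of the retromer that returns cargo from endosomes, had 238 and 282 CPM in DPZcjESC1, 251 and 282 in DPZcjESC2, 170 and 209 in DPZcjESC3, and 176 and 215 in DPZcjESC4. AP1G1, a subunit of the AP-1 clathrin adaptor, had 240 and 192 CPM in DPZcjESC1, 242 and 235 in DPZcjESC2, 156 and 149 in DPZcjESC3, and 151 and 155 in DPZcjESC4. IST1, a component of the ESCRT machinery that cuts membranes, had 199 and 190 CPM in DPZcjESC1, 240 and 253 in DPZcjESC2, 158 and 130 in DPZcjESC3, and 142 and 148 in DPZcjESC4. For all of them the libraries of DPZcjESC1 and DPZcjESC2 were the 4 highest, and IST1 was lower in DPZcjESC1 (0.43) than in DPZcjESC2 (0.77). VPS4A, the ATPase that takes ESCRT filaments apart, had ratios of 0.43 and 0.70, and DYNC1LI2, a light intermediate chain of the dynein motor, 0.46 and 0.61. Further members of lower level on the same chromosome, chosen for their roles after their values were seen, are COG4 of the Golgi tethering complex (0.35 and 0.50), VAC14, a scaffold for the kinase that makes an endosomal lipid (0.39 and 0.54), and TRAPPC2L of the TRAPP tethering complex (0.57 and 0.42).

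Next come POLR2C, CMTR2, EDC4 and TCF25, with roles in RNA or at the ribosome. POLR2C, a subunit of RNA polymerase II, had 176 and 136 CPM in DPZcjESC1, 154 and 191 in DPZcjESC2, 81.0 and 94.7 in DPZcjESC3, and 99.2 and 106 in DPZcjESC4. Its ratios of 0.72 and 0.86 were the highest sum among the 20. CMTR2, which methylates the cap of messenger RNA, had 127 and 154 CPM in DPZcjESC1, 163 and 168 in DPZcjESC2, 97.9 and 100 in DPZcjESC3, and 86.2 and 104 in DPZcjESC4. EDC4, a scaffold for removing that cap, had ratios of 0.40 and 0.48. TCF25, which takes part in the quality control of stalled ribosomes, had ratios of 0.44 and 0.43.

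The remaining abundant members of this chromosome have other roles. APRT, the enzyme that salvages adenine, had 150 and 207 CPM in DPZcjESC1, 199 and 198 in DPZcjESC2, 116 and 123 in DPZcjESC3, and 108 and 120 in DPZcjESC4. PIEZO1, a channel opened by mechanical force, had 205 and 182 CPM in DPZcjESC1, 244 and 174 in DPZcjESC2, 116 and 153 in DPZcjESC3, and 145 and 138 in DPZcjESC4. Both kept the groups apart, and the spread between the passages of DPZcjESC2 was wide for PIEZO1. Of the members of lower level, 3 more work on chromosome ends and centromeres and were likewise picked after their values were seen. CENPN of the inner kinetochore had 67.2 and 51.6 CPM in DPZcjESC1, 60.1 and 59.7 in DPZcjESC2, 35.2 and 33.6 in DPZcjESC3, and 30.2 and 39.8 in DPZcjESC4. CENPT, also of the inner kinetochore, had ratios of 0.41 and 0.46, and TERF2, which protects telomeres, 0.43 and 0.49.

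Of the 5 most abundant members without a place on the USP10 chromosome, 3 were located elsewhere. RBM39, a splicing factor, had the highest level of the set, with 533 and 402 CPM in DPZcjESC1, 394 and 474 in DPZcjESC2, 329 and 315 in DPZcjESC3, and 361 and 332 in DPZcjESC4. Its highest library was passage 46 of DPZcjESC1. SUCO, a membrane protein of the endoplasmic reticulum, had ratios of 0.32 and 0.37. AMD1, the enzyme that supplies the aminopropyl group for polyamines, had 183 and 131 CPM in DPZcjESC1, 152 and 152 in DPZcjESC2, 108 and 120 in DPZcjESC3, and 134 and 119 in DPZcjESC4, so that its groups overlapped. The other 2 had no symbol, and they were ENSCJAG00000012724, with ratios of 0.42 and 0.47, and ENSCJAG00000014587, with 0.38 and 0.65.

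At the limits of the rule, ZDHHC7, a palmitoyltransferase, was just inside with 0.30 and 0.56, and ENSCJAG00000017304 was just outside because its second ratio was 0.299945, beside 0.49 for the first. POLR2C was the member nearest to the upper limit, and NETO2, an auxiliary subunit of kainate receptors, was just outside with 0.35 and 0.92.

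Only some genes of the USP10 chromosome entered the set. Of its 153 expressed genes, 88 met the limit on passages, 76 also the limit between DPZcjESC3 and DPZcjESC4, and 38 were members. Of the other 38, 28 missed the window only because DPZcjESC1 was under 0.3, 2 only because DPZcjESC2 was, 7 because both were, and NETO2 was over 0.9. Even so, 31 of these 38 were above 0 in both lines and 0 were below 0 in both. Of all 153 expressed genes of the chromosome, 125 (81.7%) were above 0 in both lines, so the count was near that share. On chromosomes other than those of USP10 and AHCTF1, 1565 of the 6263 expressed genes were. The genes named next were chosen after their values were seen. GOT2, a mitochondrial aminotransferase, had ratios of 0.14 and 0.76, and CTCF, which organises chromatin loops, 0.25 and 0.41. RPL13, a ribosomal protein, was higher in DPZcjESC1 (0.54) than in DPZcjESC2 (0.21), and GLG1, a Golgi glycoprotein, was at -0.18 in DPZcjESC1 and 0.22 in DPZcjESC2.

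Without the limits on passages and between DPZcjESC3 and DPZcjESC4, the whole chromosome lay above the rest. The median log2 ratio of its 153 expressed genes was 0.35 in DPZcjESC1 and 0.50 in DPZcjESC2. On the 21 other chromosomes with 63 to 646 expressed genes, medians were -0.11 to 0.00 in DPZcjESC1 and -0.02 to 0.06 in DPZcjESC2. Both ratios fell in the window for 62 of the 153 genes (40.5%) and for 98 of the 6263 expressed genes on other chromosomes than those of USP10 and AHCTF1 (1.56%). Both fell in the mirrored window for 0 of the 153 and for 160 of the 6263. On the chromosome of AHCTF1, by contrast, the median of 128 expressed genes was 0.52 in DPZcjESC1 and 0.02 in DPZcjESC2, so that 93 were in the window in DPZcjESC1 and 7 in DPZcjESC2, and few could meet the rule in both.

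**Figure D3:**
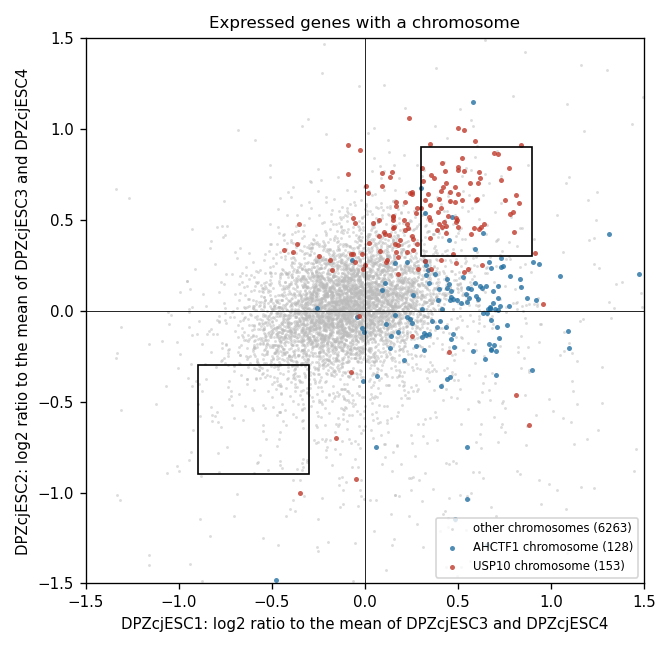
Each point is an expressed gene with a chromosome, with its log2 ratio to the mean of DPZcjESC3 and DPZcjESC4 in DPZcjESC1 (horizontal) and DPZcjESC2 (vertical); the boxes mark the windows of the set (upper right) and of the mirror set, and points beyond 1.5 are not drawn. Genes of the USP10 chromosome are raised on both axes, with 62 of 153 in the upper box, and genes of the AHCTF1 chromosome are raised in DPZcjESC1.

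By library, the median ratio on the USP10 chromosome was 0.27 and 0.36 at passages 46 and 51 of DPZcjESC1, 0.47 and 0.49 in DPZcjESC2, -0.08 and -0.03 in DPZcjESC3, and 0.01 and 0.09 in DPZcjESC4. In passage 46 of DPZcjESC1 the genes elsewhere were at -0.17, and set against them the chromosome was 0.44 higher at passage 46 and 0.38 higher at passage 51. Without passage 46 the chromosome's median in DPZcjESC1 was 0.36. By level, the highest, middle and lowest 51 genes had medians of 0.42, 0.28 and 0.29 in DPZcjESC1 and 0.51, 0.51 and 0.45 in DPZcjESC2. The 250 listed genes of the chromosome took 1.61% ± 0.000652 (SD, n = 2) of the gene counts in DPZcjESC3 and 1.78% ± 0.00275 in DPZcjESC4, but 2.12% ± 0.185 in DPZcjESC1 and 2.35% ± 0.0405 in DPZcjESC2. DPZcjESC1 and DPZcjESC2 thus stood at 1.25 and 1.39 times the mean of the other lines.

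**Figure D4:**
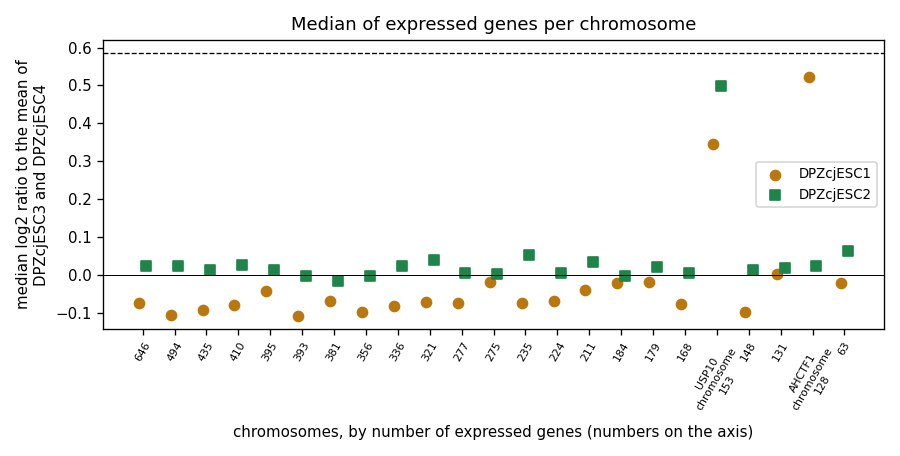
Median log2 ratio of the expressed genes of each chromosome with 63 or more such genes to the mean of DPZcjESC3 and DPZcjESC4, for DPZcjESC1 (circles) and DPZcjESC2 (squares), ordered by the number of expressed genes; the dashed line is 1.5-fold. The chromosome of USP10 is raised in both lines (0.35 and 0.50) and that of AHCTF1 in DPZcjESC1 (0.52).

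The rule was also applied to the earlier and to the later passages alone. These are parts of the same libraries and passages of the same culture lines, so they give no independent support. With a single library per line, the limit on passages could not be applied. When the rule was applied to the earlier passages alone, 152 identifiers were chosen, 32 of them on the USP10 chromosome. In the later passages, all 32 were above 0 in both lines, with medians of 0.33 and 0.55. Of all 153 expressed genes of the chromosome 86.9% were, with medians of 0.31 and 0.47, so that the 32 chosen lay close to the chromosome as a whole. Of the 75 chosen on chromosomes other than those of USP10 and AHCTF1, 39 were above 0 in both lines, with medians of 0.04 and 0.22, while 27.7% of all expressed genes on those chromosomes were. Chosen in the later passages, 61 identifiers were on the USP10 chromosome, and 43 of them were above 0 in both lines at the earlier passages, with medians of 0.40 and 0.65. That reading rests on passage 46 of DPZcjESC1, and 68.6% of all expressed genes of the chromosome were above 0 in both lines there. Elsewhere 41 of 84 were, with medians of 0.04 and 0.29, against 21.6% of all expressed genes. Both lines are read against the same DPZcjESC3 and DPZcjESC4 libraries within each passage set.

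The mirror set held 39 identifiers, with 0 placed on the USP10 chromosome. Its size relative to the set above was not stable, since without DPZcjESC2 passage 36 both sets held 102. Leaving out that library also takes the limit on passages off DPZcjESC2, and these effects cannot be told apart. The median log2 ratio of the mirror set was -0.43 in DPZcjESC1 and -0.37 in DPZcjESC2, and all 4 libraries of DPZcjESC1 and DPZcjESC2 were below the other 4 for 32 of 39, where 2.15% of all identifiers tested were. The mirror set was chosen by this contrast, so nothing is read from that count. MTOR, the kinase that couples nutrients to growth, had 143 and 192 CPM in DPZcjESC1, 167 and 176 in DPZcjESC2, 227 and 251 in DPZcjESC3, and 174 and 222 in DPZcjESC4. KIF20A, a kinesin of late cell division, had ratios of -0.60 and -0.31, and its groups overlapped. CRTAP, which takes part in modifying collagen, had -0.46 and -0.40, SEL1L of the endoplasmic reticulum degradation complex had -0.33 and -0.34, and ENSCJAG00000013421 had -0.37 and -0.31. With the average of the ratios of both lines in place of each line on its own, 211 identifiers were 0.3 to 0.9 above and 153 below.

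The other pairs of lines, put through the same rule, gave sets of 15 to 66 identifiers that were almost free of the USP10 chromosome. DPZcjESC1 with DPZcjESC3 gave 15 above and 38 below the others, DPZcjESC1 with DPZcjESC4 gave 31 and 63, DPZcjESC2 with DPZcjESC3 gave 66 and 32, and DPZcjESC2 with DPZcjESC4 gave 28 and 18. Of all these, 1 identifier was on the USP10 chromosome, in the set above for DPZcjESC2 with DPZcjESC3. Each of these pairs had DPZcjESC1 or DPZcjESC2 as 1 of its reference lines. The limit of 0.3 between the reference lines can then keep out genes raised in both DPZcjESC1 and DPZcjESC2. The low counts on this chromosome follow in part from the rule, and nothing is read from them. Turned around, with DPZcjESC3 and DPZcjESC4 each set against the mean of DPZcjESC1 and DPZcjESC2, the rule gave 42 above and 90 below, and 39 of the 90 were on that chromosome. This is the same contrast read from the other side. The number that met the earlier limits differed between pairs, from 3044 to 3655. For a line alone against the other 3, 198 identifiers were above in DPZcjESC2, with 18 of 143 placed ones on the USP10 chromosome, and 155 in DPZcjESC1, with 0 of 110 on it and 39 on the chromosome of AHCTF1. Here the other 3 lines had to lie within 0.3 (log2) of each other. That limit keeps out genes raised by more than this in both DPZcjESC1 and DPZcjESC2, so nothing is read from the 0 of 110.

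**Figure D5:**
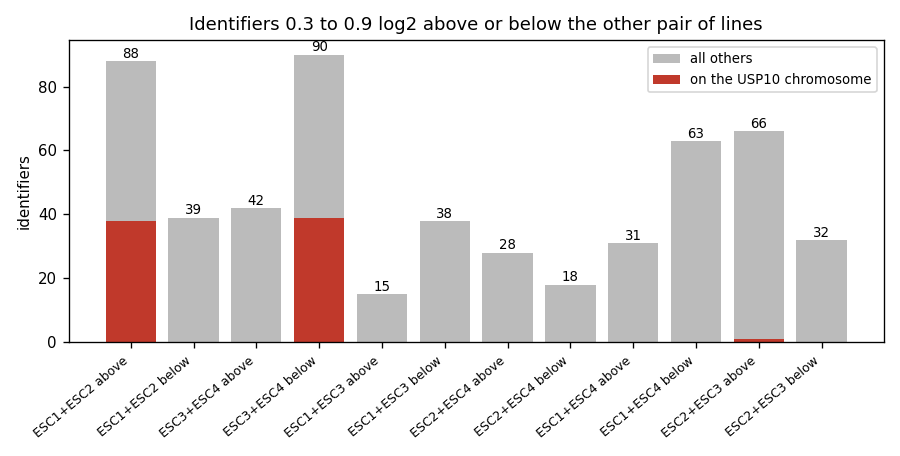
Number of identifiers 0.3 to 0.9 (log2) above or below the mean of the other pair of lines, for each pair of lines under the same rule; the red part of a bar is on the USP10 chromosome. It takes 38 of 88 and 39 of 90 in the sets that separate DPZcjESC1 and DPZcjESC2 from the others, and 0 or 1 in each of the remaining 10. In pairs that mix the groups, the limit between the reference lines can keep out genes of this chromosome, so nothing is read from their low counts.

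The tests within the pairs of lines and between passages are on differences whose direction the rule did not fix but whose size it limited, so a lack of calls among the members follows in part from the rule and is no sign of stability. DPZcjESC1 and DPZcjESC2 were compared with edgeR's quasi-likelihood test on the counts, with Benjamini-Hochberg adjusted p under 0.05 as the call. None of the 88 members was called, where 0.0127% of the 15781 identifiers tested were called higher in DPZcjESC1 and 0.0507% higher in DPZcjESC2. At an unadjusted p under 0.05, 1 member was higher in DPZcjESC1 and 0 in DPZcjESC2, beside 6.96% and 4.37% of all identifiers. DESeq2 called 0 members, and 208 and 71 of all identifiers. On the CPM scale, 55 of 88 members were higher in DPZcjESC2, whereas after TMM scaling 41 were. Of the expressed identifiers 5045 of 8466 were higher in DPZcjESC2 on the CPM scale, and of all identifiers tested 48.5% after TMM scaling, so the members' counts were near the background. On the USP10 chromosome 30 of 38 members were higher in DPZcjESC2 on the CPM scale and 24 of 38 after TMM scaling, with a median log2 difference of DPZcjESC1 minus DPZcjESC2 of -0.14 and -0.08. Of all 153 expressed genes of the chromosome 116 and 103 were, with medians of -0.20 and -0.14, so here too the members were near the chromosome as a whole. The rule keeps the ratios of both lines inside the same window and so bounds their difference.

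Between DPZcjESC3 and DPZcjESC4, edgeR called none of the members, where 0.0317% of all identifiers were called in either direction. There were 0 members with an unadjusted p under 0.05, beside 2.16% of all identifiers higher in DPZcjESC3 and 2.96% higher in DPZcjESC4. DESeq2 called 0 members, and 40 and 100 of all identifiers. By sign, 56 of 88 members and 30 of the 38 on the USP10 chromosome were higher in DPZcjESC4, beside 48.0% of all identifiers. The median log2 difference of DPZcjESC3 minus DPZcjESC4 was -0.07 and -0.11, beside 0.01 for all identifiers tested, and the rule allows at most 0.3. Between later and earlier passages, edgeR called none of the members, where 0.418% of all identifiers were called higher and 0.336% lower. Each member had been kept only with a change under 0.5 (log2) in every line. At an unadjusted p under 0.05 there were 0 members, beside 8.67% of all identifiers higher and 8.51% lower, and DESeq2 called 0 members, beside 545 and 539 of all identifiers. The later passage was lower for 54 of 88 members, with a median log2 difference of -0.05, beside 50.6% and a median of -0.00 for all identifiers.

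In the contrast that the rule used, DPZcjESC1 and DPZcjESC2 against DPZcjESC3 and DPZcjESC4, edgeR called 0 of the 88 members, where 0.0697% of all identifiers were called in each direction. At an unadjusted p under 0.05, 82 members were higher, beside 3.88% of all identifiers, and DESeq2 called 20 members higher, beside 82 of all identifiers. Nothing is read from these counts, since the contrast chose the members. Without passage 46 of DPZcjESC1 edgeR again called 0, and without passage 51 it called 10.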

How the data were processed

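RNA of 4 marmoset ES cell lines was made into 8 libraries and sequenced as single reads of 50 bases. Per the labels and the study's methods, the authors aligned reads with STAR (2.3.0e) to an Ensembl marmoset assembly and counted uniquely aligned reads per gene with HTSeq (0.6.1p1); CASAVA (1.8.2) and SAMtools (0.1.18) are also named in their processing notes. The deposited values are raw counts per Ensembl gene identifier. The 5 rows that name no gene were left out of totals; the row of reads in no gene held 29.4% to 32.9% of uniquely aligned reads and that of ambiguous reads 0.373% to 0.409%. The kit does not mark strand as far as the sources state, so reads where genes overlap cannot be assigned by strand. Reads that fit more than 1 gene fall in the ambiguous row. The members and lists were chosen with earlier results of these data known. Symbols were found for 12816 of 32338 identifiers (39.6%), and RefSeq chromosomes (calJac240_pri) for 12452 through these symbols; of the expressed identifiers 77.3% had a chromosome. Ratios are on the log2 scale of line means of CPM. Differences were tested with edgeR (4.0.16; TMM, quasi-likelihood) on identifiers with at least 10 counts in 2 libraries, tested on simulated data first, and with DESeq2 (1.42.0) as an alternative. The model held the 4 lines, or line and passage order for the comparison of passages. Named were the 20 members and the 5 mirror members of highest mean CPM; genes outside that rule are marked. With 200 counts in each library, counting alone gives a standard error of 0.0883 for a log2 ratio of 2 against 4 libraries. Alternatives were other scalings, limits and tools, and leaving out each library.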

Additional observations from a re-analysis of the deposited data

Results flagged for a closer look

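Among 28 measures with 4 libraries in each pair of lines, 56 groups were examined for a library far from the other 3 of its group, and 3 were found. With 4 unrelated libraries in each group, chance alone would give about 2.8. Here a group holds passages of a pair of lines, and most measures are identifiers kept by the rule, so that rate need not hold. AP1G1 had 192 CPM (191.802) in DPZcjESC1 passage 51, while the other 3 libraries of DPZcjESC1 and DPZcjESC2 had 235 to 242 CPM. APRT had 150 CPM (149.859) in DPZcjESC1 passage 46, while the others had 198 to 207 CPM. KIF20A of the mirror set had 118 CPM (117.963) in DPZcjESC1 passage 46, while the others had 165 to 173 CPM.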

How the results depend on the processing

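The size of the set depends on the limits of the rule. In place of 88 members and 39 of the mirror set, a minimum mean count of 500 gave 54 and 25, passages within 0.3 gave 33 and 9, no limit on passages gave 179 and 110, and a window of 0.4 to 0.8 gave 42 and 7. The earlier passages alone gave 152 and 129 and the later ones 194 and 124, in both cases with no limit on passages. Without the limit between DPZcjESC3 and DPZcjESC4 the mirror set held 66. Leaving out 1 library gave 83 to 143 members and 40 to 102 of the mirror set. A line left with 1 library has no limit on passages. These counts and those by chromosome therefore mix the effect of the library with that of a looser rule. The highest numbers were 143 without DPZcjESC1 passage 46, and for the mirror set 102 without DPZcjESC2 passage 36, where the set above also held 102, and 73 without DPZcjESC1 passage 51. With TMM or with DESeq2's size factors 76 identifiers met the rule, 61 of them members, and 28 were on the USP10 chromosome. That chromosome held 38 members as reported, 18 with passages within 0.3, 61 in the later passages alone and 34 to 57 with 1 library left out, 57 being without DPZcjESC1 passage 46; these counts by chromosome were chosen after seeing the data. Its median ratio was 0.29 to 0.36 in DPZcjESC1 and 0.47 to 0.53 in DPZcjESC2 with 1 library left out. Members next to a member in identifier order fell from 8 to 2 when all identifiers with a mean count of 200 or more entered the order, which puts more identifiers between them.

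Counts of calls over all identifiers moved more. For the pairs {DPZcjESC1, DPZcjESC2} and {DPZcjESC3, DPZcjESC4}, edgeR's 22 calls (11 higher, 11 lower) became 141 with DESeq2 (82 and 59), 47 with no filter on low counts, 2 with 2 groups of 4 libraries and 2 to 124 with 1 library left out (124 without DPZcjESC1 passage 51, and 2 to 7 without any 1 library of DPZcjESC2, DPZcjESC3 or DPZcjESC4). For DPZcjESC1 against DPZcjESC2, 10 calls (2 higher, 8 lower) became 279 with DESeq2 (208 and 71), 75 with no filter (48 and 27) and 3 to 601 with 1 library left out (601 without DPZcjESC1 passage 51, and 3 without either library of DPZcjESC2). For DPZcjESC3 against DPZcjESC4, 10 calls (5 and 5) became 140 with DESeq2 (40 and 100), 46 with no filter (13 and 33) and 5 to 17 with 1 library left out (17 without either library of DPZcjESC1, 5 or 6 without 1 of DPZcjESC3 or DPZcjESC4). For passages, 119 calls became 1084 with DESeq2, 494 with no filter and 0 to 143, with 0 without either library of DPZcjESC2 or of DPZcjESC3, and 35 or 42 without 1 of DPZcjESC4. A line left with 1 library was assumed to vary like the others. The causes were not tested. Of the members, edgeR and DESeq2 called 0 in these last 3 comparisons under every alternative run, in comparisons whose size the rule limits.

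Passage order as a replicate block gave 24, 13 and 12 calls in place of 22, 10 and 10 in the 3 comparisons of lines, and the comparison of passages without its block gave 143 in place of 119. Passage numbers do not pair libraries across lines, so the block is no paired design, and it changed no call among the members.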
